A study of Homo sapiens with 15 samples.

Results

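Fibroblast growth factors (FGFs) and their receptors were followed in 2 human cell lines made senescent and given an shRNA against thrombomodulin (THBD), an endothelial cofactor of protein C activation that other cells can also express. The members were chosen by gene symbol from both count tables: 6 ligands (FGF1, FGF2, FGF5, FGF7, FGF19 and FGF21) and 4 receptors (FGFR1, FGFR2, FGFR3 and FGFR4), which are 10 of the 59428 genes listed for IMR90 and of the 59412 listed for Huh7. IMR90, a lung fibroblast line, was senescent through the oncogene HRAS G12V in every library, and Huh7, a hepatocyte-derived carcinoma line, was senescent through palbociclib, an inhibitor of the kinases CDK4/6, in every library. In IMR90 there were 3 libraries of an shRNA against THBD labelled set 1, 3 labelled set 2 and 3 with a non-targeting shRNA (control), and what the set numbers stand for is not given. In Huh7 there were 3 libraries with an shRNA against THBD and 3 with the non-targeting shRNA. No library of cells that were not senescent was analysed here, and each arm is a single line. Nothing in the labels tells whether replicates came from separate cultures, so the p-values reflect the spread among these libraries alone, which may be technical. That spread, estimated by edgeR as a common coefficient of variation beyond counting error, was 3.13% in IMR90 and 8.2% in Huh7. Huh7 shTHBD replicate 3 lay further from replicates 1 and 2 (chi-square per degree of freedom 9.91 and 12.4) than these did from each other (4.32).

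FGFs bind a receptor tyrosine kinase together with heparan sulfate on the cell surface, and the receptor then passes the signal through the adaptor FRS2 to the RAS, RAF and ERK kinases. FGF1, FGF2, FGF5 and FGF7 act close to the cell that makes them. FGF1 and FGF2 lack a classical signal peptide and leave the cell by another route. FGF19 and FGF21 circulate as hormones and need the co-receptor KLB (beta-Klotho). In hepatocytes, FGF19 acts through FGFR4 and KLB to lower bile acid synthesis, and FGF21 is made under starvation and amino acid stress. The pathway restrains itself through Sprouty and SPRED proteins and the ERK phosphatase DUSP6, whose genes ERK activity switches on, together with the transcription factors ETV4 and ETV5.

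Promoter sequences are shown for FGF1, the member with the largest difference in IMR90, for FGF21, a ligand made under amino acid stress, and for FGFR3, the most abundant receptor transcript in Huh7. They are the 250 bases before an annotated start site in RefSeq (GRCh38.p14). Entries of 8 of the 10 members were searched, in 17 windows; FGF19 and FGFR1 were not searched. Capitals mark a match, on either strand, to TGANTCA (the AP-1 motif, which reads the same on both strands) or to TGATGCAAT (an amino acid response element, ATTGCATCA on the other strand); these motifs do not overlap in any window printed. FGF1 has 4 start sites listed; the window of the most upstream is chr5:142698071-142698320 (minus strand), and that of the most downstream is chr5:142644240-142644489 (minus strand). The FGF21 window is chr19:48755274-48755523 (plus strand) and the FGFR3 window is chr4:1793043-1793292 (plus strand).
FGF1, most upstream start site: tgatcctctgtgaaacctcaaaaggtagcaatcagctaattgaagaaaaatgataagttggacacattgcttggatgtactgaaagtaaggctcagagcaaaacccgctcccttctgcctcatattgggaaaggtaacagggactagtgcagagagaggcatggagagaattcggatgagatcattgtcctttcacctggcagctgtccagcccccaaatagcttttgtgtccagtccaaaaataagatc
FGF1, most downstream start site: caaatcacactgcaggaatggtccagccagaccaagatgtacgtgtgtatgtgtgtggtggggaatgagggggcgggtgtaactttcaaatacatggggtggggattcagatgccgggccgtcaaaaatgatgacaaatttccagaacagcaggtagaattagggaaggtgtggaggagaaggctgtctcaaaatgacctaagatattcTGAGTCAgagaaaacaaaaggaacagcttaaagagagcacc
FGF21: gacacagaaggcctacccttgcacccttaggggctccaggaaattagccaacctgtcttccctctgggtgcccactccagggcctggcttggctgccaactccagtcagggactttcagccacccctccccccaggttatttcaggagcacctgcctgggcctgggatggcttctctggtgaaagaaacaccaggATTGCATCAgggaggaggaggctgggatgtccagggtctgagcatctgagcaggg
FGFR3: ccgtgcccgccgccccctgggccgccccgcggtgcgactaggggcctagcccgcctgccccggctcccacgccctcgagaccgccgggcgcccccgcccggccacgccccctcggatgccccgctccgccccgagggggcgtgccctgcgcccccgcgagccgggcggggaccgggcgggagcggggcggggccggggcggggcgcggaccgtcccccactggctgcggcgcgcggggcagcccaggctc
The most downstream FGF1 window held TGAGTCA beginning at -41 from the start site, and the FGF21 window held ATTGCATCA beginning at -55. The other windows searched held neither motif. Of all 35116 windows of this length in the table, 6.573% held the AP-1 motif and 0.216% the amino acid response element. The FGFR3 window is 86.8% G and C, against 44.8% in the most upstream FGF1 window. Such a match is a description of these letters only, and gene counts do not show which start site was used.

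Library totals were 18256773 to 21509229 counted fragments in IMR90 and 19328182 to 25236178 in Huh7. The targeted gene went against its label in set 1: THBD had 719, 732 and 763 counts there, 199, 220 and 209 in set 2, and 315, 351 and 430 in the control. Relative to control its log2 fold change was 1.09 ± 0.0764 (SE) in set 1 and −0.81 ± 0.0905 in set 2. In Huh7, THBD had 0 counts in each shTHBD library and 0, 0 and 6 counts in the control libraries, so its depletion could not be read from these counts; a count of 0 allows up to 3 counts, a limit that covers counting error only. All 9 fibroblast markers reached 1 CPM (counts in 1000000 counted fragments of the library) in each IMR90 group and all 9 hepatocyte markers did so in each Huh7 group, while endothelial markers summed to at most 11.9 CPM in IMR90 and 15.7 CPM in Huh7. The fibroblast markers summed to 4662 to 4757 CPM in libraries labelled set 1, 12546 to 12722 CPM in set 2 and 6371 to 6457 CPM in the IMR90 control, and the hepatocyte markers to 4952 to 5134 CPM in Huh7 shTHBD and 7092 to 7341 CPM in the Huh7 control, although FGB, the most abundant of them, averaged 2606 CPM with shTHBD and 2309 CPM in the control. Other lists moved with the groups as well. In Huh7 the fibroblast markers summed to 1683 to 1744 CPM with shTHBD and 1059 to 1108 CPM in the control, and the epithelial markers to 2799 to 2865 CPM with shTHBD and 4614 to 4847 CPM in the control. In IMR90 the hepatocyte markers summed to 132 to 142 CPM in libraries labelled set 1. They summed to 11.5 to 13.2 CPM in set 2 and 15.9 to 17.9 CPM in the control. SERPINA1, the most abundant of them, averaged 134, 8.80 and 16.3 CPM in the same order. The leukocyte markers summed to 11.9 to 13.4, 1.20 to 1.96 and 4.09 to 4.61 CPM, also in that order. The part of all these marker lists in the FGF results was not tested. The description of set 2 replicate 3 names Huh7, whereas its other labels name IMR-90, and it stayed with that group.

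The lines held different sets of FGF transcripts. Levels were scaled to the summed length of a gene's annotated exons (CPM per kilobase of exon). On this scale FGF2 was the most abundant member in every IMR90 group. It was at 60.5 ± 1.23 in libraries labelled set 1, 28.5 ± 0.555 in set 2 and 66.9 ± 1.83 in the control (SD, n = 3 each). The next levels in libraries labelled set 1 were FGFR1 (12.7), FGF5 (6.65) and FGF7 (2.83), and their ranges did not overlap. In set 2 the order after FGF2 was FGF1 (16.4), FGF5 (13.3), FGFR1 (5.67) and FGF7 (3.16), each apart from the next. In the control it was FGFR1 (9.32), FGF5 (8.57) and FGF7 (6.87), and here FGFR1 and FGF5 overlapped. FGFR4, FGFR3 and, outside set 2, FGF1 lay below 1 CPM per kilobase in every IMR90 library, and FGF19, FGF21 and FGFR2 had at most 4 counts in any.

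Huh7 was led by receptors. FGFR3 was at 24.8 ± 3.38 CPM per kilobase with shTHBD and 91.6 ± 6.43 in the control. FGF19, the leading ligand, was at 10.9 ± 0.961 and 11.5 ± 0.653, and FGFR4 at 6.79 ± 0.262 and 27.7 ± 1.55, so that FGF19 ranked above FGFR4 with shTHBD and below it in the control. FGF2 followed at 1.37 ± 0.317 with shTHBD and 0.952 ± 0.0577 in the control. FGF21, FGF5, FGF1, FGFR1, FGF7 and FGFR2 each averaged under 0.4 CPM per kilobase in both groups, and the ranges of FGF5, FGF1, FGFR1, FGF7 and FGFR2 overlapped their neighbours in the shTHBD libraries. The 2 tables used different exon lengths for FGFR1 (17.2 kilobases for IMR90 and 13.84 for Huh7) and FGFR2, so levels of these genes are compared only within a line. The order of genes within a line also depends on the exon lengths used. Without scaling to length, set 2 averaged 97.5 CPM for FGFR1, 81.9 for FGF1 and 79.1 for FGF5. Huh7 with shTHBD then averaged 32.7 CPM for FGFR4 and 19.8 for FGF19.

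**Figure D1:**
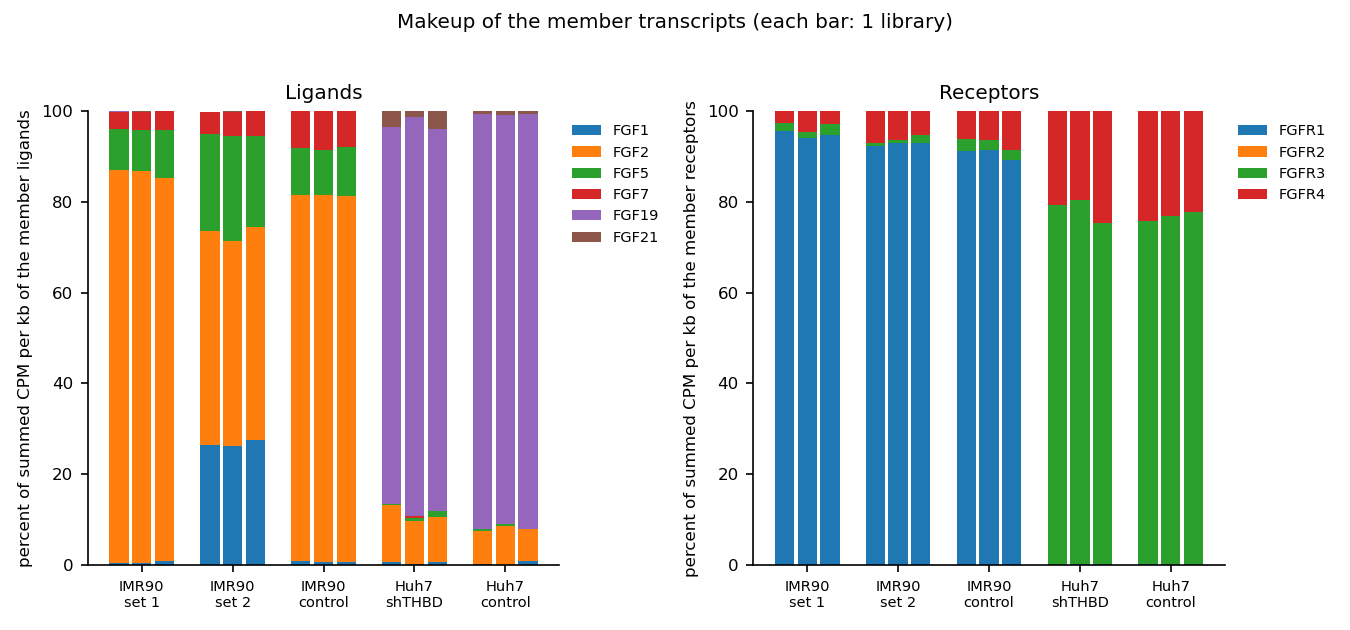
Share of each ligand (left) and receptor (right) in the summed CPM per kilobase of the member ligands or receptors, in percent, with 1 bar per library. FGF1 makes up 26.3% to 27.6% of the ligand total in set 2 and under 1% in the other IMR90 groups; FGFR1 makes up most of the IMR90 receptor total, and FGFR3 with FGFR4 nearly all of the Huh7 total.

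Of the 10 members, 7 had enough counts for the test in IMR90 (FGF19, FGF21 and FGFR2 did not). In libraries labelled set 1, 6 of the 7 differed from control by edgeR's quasi-likelihood test at an adjusted p under 0.05, 1 higher and 5 lower, where 53.8% of all 15411 genes tested did so (27.3% higher and 26.5% lower). In set 2, 7 of 7 differed from control, 2 higher and 5 lower, beside 67.3% of all genes (33.2% higher and 34.1% lower). Between the sets, 5 of 7 differed, of which 3 were higher in libraries labelled set 1 and 2 were lower there, beside 69.5% of all genes (33.9% higher and 35.6% lower). The members were chosen with results of these data known, so nothing is read from these shares, and what follows turns on the size and direction of each member. Both sets share the same control libraries.

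FGF1, which can bind every FGF receptor, showed the largest difference of any member. It was at 1.59, 1.75 and 3.28 CPM in libraries labelled set 1, at 81.1, 80.9 and 83.7 CPM in set 2, and at 3.56, 3.10 and 2.79 CPM in the control. All set 2 libraries lay far above all others, and the libraries labelled set 1 overlapped the control. In libraries labelled set 1 its log2 fold change over control was −0.44 ± 0.184 (adjusted p = 0.039), a call that was lost with DESeq2's test (adjusted p = 0.13), in a fit without set 2 (0.09), without control replicate 1 (0.16) or 2 (0.063), and without set 1 replicate 1 (0.28) or 2 (0.25); without set 1 replicate 3 the value was −0.85. In set 2 FGF1 rose 24.6-fold (log2 fold change 4.62 ± 0.0996, adjusted p = 5.5e-51), and over the alternatives the log2 value stayed between 4.52 and 4.71. The difference of set 1 from set 2 was −5.06 ± 0.106 (adjusted p = 8.9e-52). In Huh7, FGF1 had 24 counts over the shTHBD libraries and 15 over the control libraries, too few for the test.

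Set beside FGF2, the change in FGF1 altered the makeup of the ligand transcripts. The ratio of FGF1 to FGF2 in CPM per kilobase was 0.00518 to 0.0108 in libraries labelled set 1, 0.561 to 0.590 in set 2 and 0.00814 to 0.0110 in the control. The summed ligand level was 68.5 to 71.9 CPM per kilobase in libraries labelled set 1, 61.0 to 61.7 in set 2 and 80.9 to 85.3 in the control, so it was lowest in set 2 even with FGF1 added.

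FGF2 (basic FGF), a mitogen of fibroblasts and endothelial cells, was at 417, 401 and 411 CPM in libraries labelled set 1, 197, 189 and 193 CPM in set 2, and 442, 452 and 466 CPM in the control. No group overlapped another. It fell 1.07-fold in libraries labelled set 1 (−0.09 ± 0.0256, adjusted p = 0.0018) and 2.49-fold in set 2 (−1.31 ± 0.0272, adjusted p = 3.9e-52), a difference between the sets of 1.22 ± 0.0273 (adjusted p = 3.6e-50). Of its exon bases, 804 (11.867%) are shared with NUDT6 on the opposite strand. The header of the IMR90 table gives no strand option, so reads of these bases cannot be told apart; NUDT6 itself was counted at 1.01 ± 0.297 CPM in libraries labelled set 1, 1.86 ± 0.122 CPM in set 2 and 1.18 ± 0.297 CPM in the control.

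FGF5, known as an inhibitor of hair growth, was at 37.4, 36.5 and 45.0 CPM in libraries labelled set 1, 79.1, 85 and 73.1 CPM in set 2, and 49.5, 49.0 and 54.6 CPM in the control. The groups did not overlap, and the sets moved to opposite sides of the control. It fell 1.24-fold in libraries labelled set 1 (−0.31 ± 0.0609, adjusted p = 1.3e-05) and rose 1.46-fold in set 2 (0.55 ± 0.0564, adjusted p = 9.1e-14); set 1 minus set 2 was −0.86 ± 0.0584 (adjusted p = 8.2e-22).

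FGF7 (keratinocyte growth factor), which fibroblasts make and which acts on epithelial cells through a splice form of FGFR2, fell in both sets. It was at 18.1, 18 and 19.3 CPM in libraries labelled set 1, 19.0, 20.9 and 21.8 CPM in set 2, and 43.7, 46.6 and 44.1 CPM in the control. The fall was 2.33-fold in libraries labelled set 1 (−1.22 ± 0.0712, adjusted p = 8.5e-25) and 2.31-fold in set 2 (−1.21 ± 0.0705, adjusted p = 3.2e-25). The sets overlapped, and their difference of −0.02 ± 0.0787 did not pass the test (adjusted p = 0.87); its sign changed with the processing. FGF7 has 8 pseudogenes named in the table, with at most 11 counts each in any IMR90 library.

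**Figure D2:**
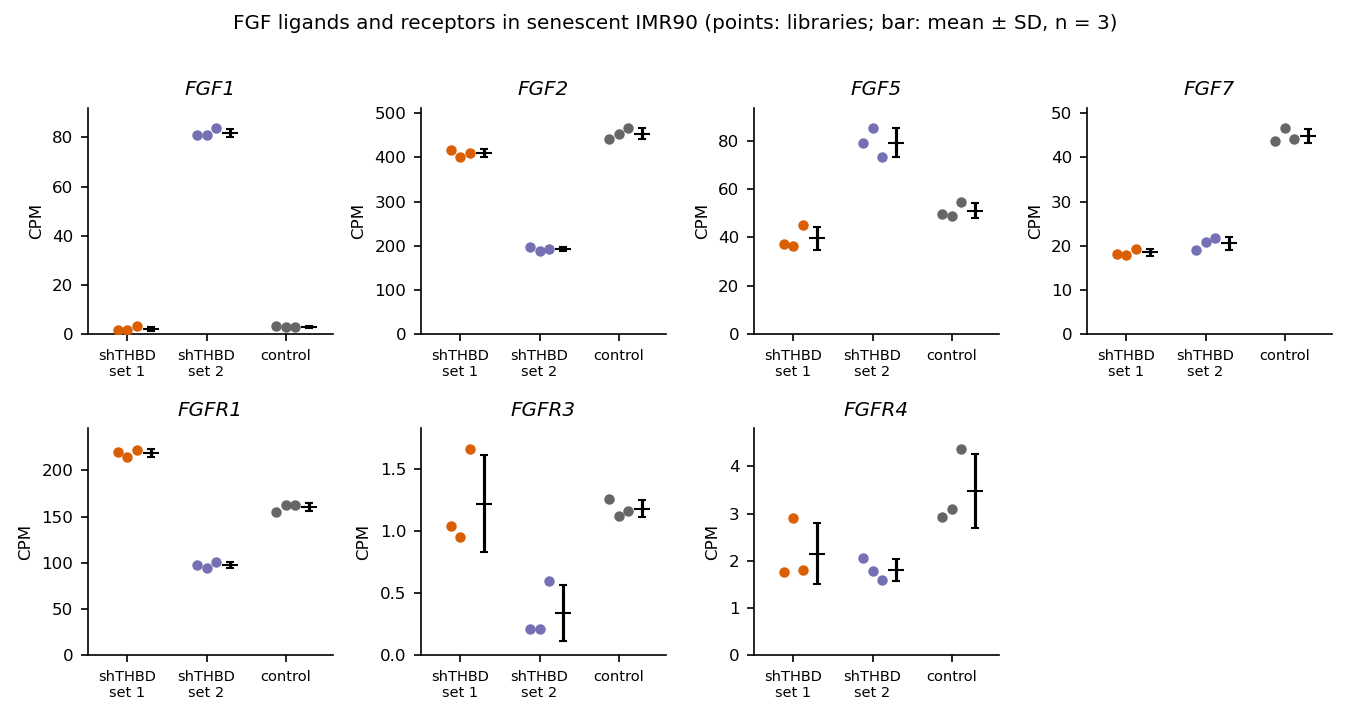
CPM of the 7 members tested in senescent IMR90, with 1 point per library and the mean ± SD (n = 3) beside each group. The FGF1 points of set 2 lie at 80.9 CPM and above and those of the other groups at 3.56 CPM and below, FGF7 is lower in both sets than in the control, and FGFR1 is highest in libraries labelled set 1 and lowest in set 2.

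Among receptors, FGFR1, the main receptor of mesenchymal cells, made up 94.0% to 95.7% of the receptor total per kilobase in libraries labelled set 1, 92.3% to 93.0% in set 2 and 89.2% to 91.5% in the control. Its level was 219.6, 214 and 222 CPM in libraries labelled set 1, 97.2, 94.3 and 101 CPM in set 2, and 155, 163 and 163 CPM in the control. No group overlapped another. It rose 1.42-fold in libraries labelled set 1 (0.50 ± 0.0325, adjusted p = 1.7e-22) and fell 1.74-fold in set 2 (−0.80 ± 0.0352, adjusted p = 3.6e-32); set 1 minus set 2 was 1.30 ± 0.0344 (adjusted p = 1.4e-45). Set 2 thus held less FGFR1 and FGF2 transcript together with more FGF1. The summed receptor level was 13.2 to 13.6 CPM per kilobase in libraries labelled set 1, 5.89 to 6.33 in set 2 and 9.89 to 10.6 in the control. Counts per gene do not separate the splice forms of a receptor, which differ in the ligands they bind, and in bulk RNA fewer cells of a type and less RNA per cell cannot be told apart.

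FGFR3 and FGFR4 were scarce in IMR90. FGFR3 had 19, 19 and 34 counts in libraries labelled set 1, 4, 4 and 11 in set 2, and 24, 21 and 25 in the control. It was 0.10 ± 0.363 in libraries labelled set 1 (adjusted p = 0.83), where it overlapped the control, and fell in set 2 (−1.87 ± 0.448, adjusted p = 0.00019; −2.54 to −1.63 over the alternatives), so that set 1 minus set 2 was 1.98 ± 0.446 (adjusted p = 7.5e-05). FGFR4 had 32, 58 and 37 counts in libraries labelled set 1, 39, 34 and 29 in set 2, and 56, 58 and 94 in the control. Its value in libraries labelled set 1 (−0.64 ± 0.233, adjusted p = 0.017) was no longer called without set 1 replicate 1 (adjusted p = 0.085) or 3 (0.086) or without control replicate 3 (0.18). It fell in set 2 (−1.03 ± 0.24, adjusted p = 0.00013). The difference between the sets was 0.40 ± 0.256 (adjusted p = 0.16). FGFR2 had 1 count in all 9 IMR90 libraries.

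In Huh7, 5 members had enough counts for the test. Of these, 4 differed between shTHBD and control, 1 higher and 3 lower, where 53.1% of all 17474 genes tested did so (25.9% higher and 27.3% lower). The 3 lower members are all receptors.

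FGFR3, a receptor best known for restraining bone growth, was at 131, 129 and 102 CPM with shTHBD, against 435, 419 and 479 CPM in the control. FGFR4, the hepatocyte receptor of FGF19, was at 33.8, 31.3 and 33.0 CPM with shTHBD, against 138, 125 and 136 CPM in the control. For both genes every shTHBD library lay far below every control library. FGFR3 fell 3.77-fold (−1.91 ± 0.0685, adjusted p = 2.2e-21) and FGFR4 fell 4.15-fold (−2.05 ± 0.0728, adjusted p = 1.7e-21), with log2 values between −1.97 and −1.83 and between −2.11 and −2.0 over the alternatives. The receptor total was 27.9 to 34.1 CPM per kilobase with shTHBD and 112 to 127 in the control. Its makeup overlapped between the groups: FGFR3 was 75.1% to 80.2% of it with shTHBD and 75.6% to 77.6% in the control. FGFR1 had 9, 16 and 25 counts with shTHBD, against 47, 35 and 30 in the control (−1.45 ± 0.441, adjusted p = 0.0059), a call that was lost without control replicate 1 (−1.24, adjusted p = 0.06). FGFR2 had 2 counts over the shTHBD libraries and 3 over the control libraries.

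No ligand tested among the members was called lower in Huh7. FGF19 was at 20.7, 20.9 and 17.7 CPM with shTHBD, against 21.0, 19.6 and 21.9 CPM in the control. The groups overlapped, and the difference of −0.11 ± 0.107 did not pass the test (adjusted p = 0.42). FGF2 was at 11.7, 8.40 and 7.74 CPM with shTHBD, against 6.15, 6.89 and 6.31 CPM in the control. Every shTHBD library lay above every control library (0.50 ± 0.169, adjusted p = 0.014), but the call was lost without shTHBD replicate 1 (0.30, adjusted p = 0.16).

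FGF21 was near the limit of counting, with 15, 6 and 14 counts with shTHBD, against 2, 3 and 2 in the control, and the groups did not overlap. The ratio of the summed counts, scaled to library totals, was 4.11, with a 95% interval of 1.80 to 11 that covers counting error only. The gene fell under the filter on low counts; in the fit with no filter its log2 fold change was 1.97 and did not pass (adjusted p = 0.12). FGF5 had 37 counts over the shTHBD libraries and 12 over the control libraries, a ratio of 2.53 (95% counting interval 1.29 to 5.34), but its libraries overlapped and it did not pass with no filter (adjusted p = 0.29). All 7 counts of FGF7 came from 1 shTHBD library.

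**Figure D3:**
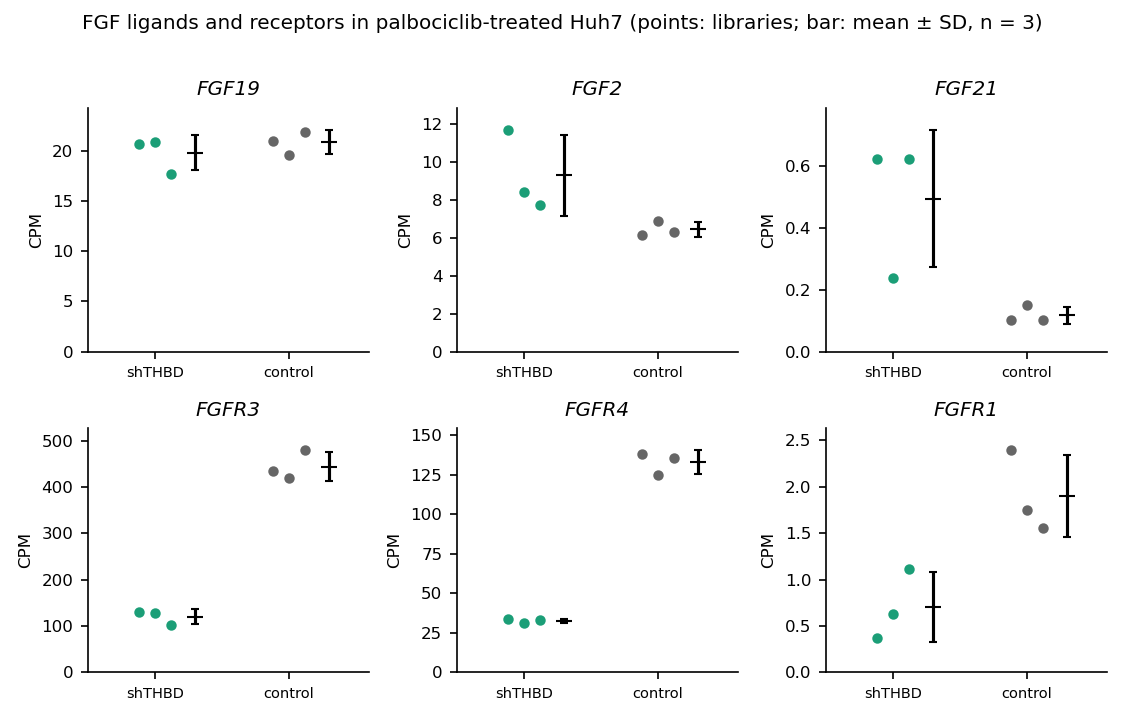
CPM of 6 members in palbociclib-treated Huh7, with 1 point per library and the mean ± SD (n = 3) beside each group. FGFR3 is at 102 to 131 CPM with shTHBD and 419 to 479 CPM in the control, FGFR4 differs likewise, and the FGF19 groups overlap; FGF21 and FGFR1 rest on few counts.

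The difference between the lines was tested for the 4 members measured in both (the effect in IMR90 set 2 minus the effect in Huh7), in a joint fit in which 44.0% of all 16682 genes tested passed; 3 of the 4 members did. The effect on FGF2 was opposite in the lines, −1.31 in IMR90 set 2 and 0.50 in Huh7, and differed by −1.84 ± 0.116 (adjusted p = 3.1e-16). The Huh7 rise lost its call without shTHBD replicate 1 (0.30, adjusted p = 0.16), while the difference stayed between −1.94 and −1.65 over the alternatives. FGFR4 fell in both lines, by less in IMR90 set 2 than in Huh7 (difference 0.99 ± 0.224, adjusted p = 0.00035). In IMR90 it rested on 39, 34 and 29 counts in set 2 and 56, 58 and 94 in the control. FGFR3 fell in both, and its difference of 0.01 ± 0.277 did not pass (adjusted p = 1), with a range of −0.66 to 0.26 over the alternatives; it had few counts in IMR90. The FGFR1 difference, 0.64 ± 0.257 (adjusted p = 0.042), ranged from 0.33 without Huh7 shTHBD replicate 1 to 1.1 without Huh7 shTHBD replicate 3; its call was lost with the replicate number as a block (adjusted p = 0.066), without either IMR90 control replicate 1 or set 2 replicate 3 (adjusted p = 0.059 each), and without Huh7 control replicate 1 (0.22) or Huh7 shTHBD replicate 1 (0.33) or 2 (0.12). The joint fit used 1 estimate of the spread per gene for both lines (common coefficient of variation 5.48%), although Huh7 varied more than IMR90. Its SEs for FGF2 and FGFR1 were below those of the Huh7 effects alone (0.169 and 0.441). Its SEs for FGFR3 and FGFR4 were below those of the IMR90 set 2 effects alone (0.448 and 0.24). The joint fit may thus understate the error of these differences. The lines also differed in the inducer of senescence and in the shRNA label, which cannot be told apart from the line.

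**Figure D4:**
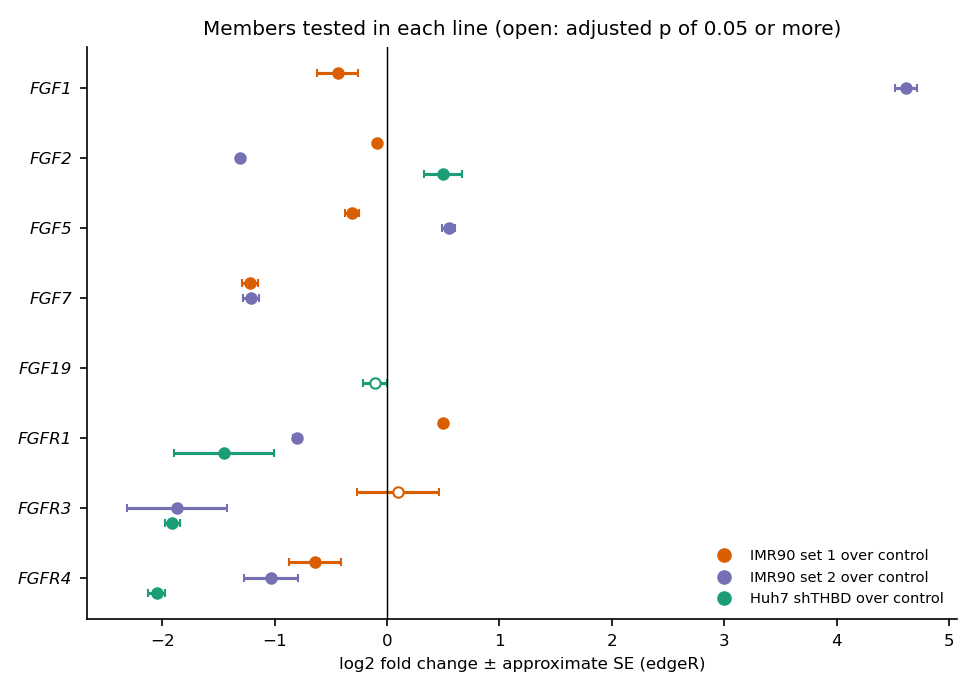
Log2 fold change over control with its approximate SE for the members tested, in libraries labelled set 1, in set 2 and in Huh7; filled points passed an adjusted p of 0.05. FGF1 in set 2 stands at 4.62, FGF7 is near −1.2 in both IMR90 sets, and FGFR3 and FGFR4 in Huh7 lie near −2.

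The gene lists that follow were, like the members, chosen with earlier results of these data known, so their shares are descriptions only. Other FGF genes mostly had too few counts for the test in IMR90. Of 16, 2 were tested in IMR90 (FGF14 and FGF18). None was called in either set, beside 53.8% of all genes in libraries labelled set 1 and 67.3% in set 2. The sets differed from each other for 1, beside 69.5% of all genes. In Huh7 7 were tested, of which 4 were higher and 1 lower, beside 25.9% and 27.3% of all genes. FGF17, a ligand of the embryonic FGF8 subfamily, was at 12.5, 14.5 and 8.72 CPM with shTHBD, against 3.25, 2.50 and 4.14 CPM in the control, and rose 3.53-fold (1.82 ± 0.195, adjusted p = 1.3e-09). FGF12, an FGF homologue that stays inside the cell, fell 1.34-fold (−0.42 ± 0.103, adjusted p = 0.00078). It averaged 19.1 CPM with shTHBD and 25.1 CPM in the control. FGF13, named after its values were seen, averaged 28.4 CPM with shTHBD and 22.5 CPM in the control (0.31 ± 0.108, adjusted p = 0.017).

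Co-receptors, the decoy receptor FGFRL1 and carriers moved in both directions. In libraries labelled set 1, 4 of the 11 tested were higher and 3 lower than control (median log2 fold change −0.01, against −0.00 over all genes, of which 27.3% were higher and 26.5% lower), and in set 2 5 were higher and 5 lower (median −0.15, against 0.01 over all genes, of which 33.2% were higher and 34.1% lower). The heparan sulfate proteoglycan syndecan-4 (SDC4) was at 145, 144 and 147 CPM in libraries labelled set 1, 573, 581 and 573 CPM in set 2, and 215, 208 and 216 CPM in the control. It fell 1.41-fold in libraries labelled set 1 (−0.50 ± 0.0289, adjusted p = 5.9e-25) and rose 2.55-fold in set 2 (1.35 ± 0.0265, adjusted p = 1.7e-53). Syndecan-2 (SDC2) fell 1.16-fold in libraries labelled set 1 and rose 2.12-fold in set 2. The syndecans SDC1 and SDC3, named after their values were seen, went the other way. They rose 1.46-fold and 1.38-fold in libraries labelled set 1 and fell 2.11-fold and 1.81-fold in set 2. In Huh7, 4 of 16 were higher and 5 lower (median −0.05, against 0.00 over all genes, of which 25.9% were higher and 27.3% lower), with the glypicans GPC4 at 8.67, 9.31 and 10.4 CPM with shTHBD, against 3.35, 2.90 and 2.90 CPM in the control (1.60 ± 0.186, adjusted p = 7e-09), and GPC1 at 0.90 ± 0.0981 (adjusted p = 1.7e-09). KLB, the co-receptor of FGF19 with FGFR4, named for its role after its values were seen, was at 145, 148 and 159.7 CPM with shTHBD, against 150.5, 160.4 and 153 CPM in control libraries, and missed the threshold (−0.06, adjusted p = 0.44). FGFR4 transcript was thus lower with shTHBD while those of its ligand and co-receptor overlapped between the groups.

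Enzymes that build or trim heparan sulfate, a list chosen with earlier results known, were mostly lower in set 2. There 12 of 14 tested fell and 1 was higher (median −0.80), beside 34.1% of all genes lower and 33.2% higher. The heparanase HPSE fell 4.65-fold in set 2 (−2.22 ± 0.237, adjusted p = 3.3e-13) and rose 1.60-fold in libraries labelled set 1 (0.67 ± 0.172, adjusted p = 0.00063). It had 31, 11 and 14 counts in set 2 and 76, 93 and 90 in the control. The chain-initiating enzyme EXTL3 fell 3.09-fold in set 2 (−1.63 ± 0.0344, adjusted p = 1.5e-51). EXTL3 was at 199.9, 201 and 192 CPM in libraries labelled set 1, 80.7, 79.9 and 76.1 CPM in set 2, and 229.9, 227 and 234 CPM in the control. In libraries labelled set 1, 5 were higher and 5 lower (median −0.08), beside 27.3% and 26.5% of all genes. In Huh7, 5 of 14 were higher and 7 lower (median −0.15), beside 25.9% and 27.3% of all genes; the sulfotransferases HS3ST1 and NDST1 moved in opposite directions, by 1.26 ± 0.227 (adjusted p = 1.7e-05) and −1.11 ± 0.0586 (adjusted p = 5.1e-17).

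Of 11 adaptors that carry the receptor signal, 5 were higher and 4 lower in libraries labelled set 1 (median 0.11), 3 higher and 6 lower in set 2 (median −0.18), and 5 higher and 2 lower in Huh7 (median 0.16). Of all genes, 53.8% were called in libraries labelled set 1, 67.3% in set 2 and 53.1% in Huh7. The phosphatase gene PTPN11 (SHP2) fell 1.82-fold in set 2 (−0.86 ± 0.0281, adjusted p = 5.9e-40). The RAS exchange factor SOS1 rose 2.17-fold in Huh7 with shTHBD (1.12 ± 0.0706, adjusted p = 4.4e-15) and the adaptor SHC1 fell 1.40-fold (−0.49 ± 0.064, adjusted p = 8.3e-08). The adaptor gene CRKL rose 1.39-fold in libraries labelled set 1 (0.48 ± 0.0332) and fell 1.71-fold in set 2 (−0.77 ± 0.036).

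Feedback inhibitors and target genes of the pathway were tested in full, 17 of 17, in both lines. This list was also chosen with earlier results known, so its shares are a description. In Huh7 with shTHBD 15 were lower and none higher (median −0.92, against 0.00 over all genes, of which 27.3% were lower). ETV4 was at 3.32, 3.05 and 1.82 CPM with shTHBD, against 36.4, 38.7 and 40.1 CPM in the control, and fell 14.2-fold (−3.83 ± 0.142, adjusted p = 5.5e-21). ETV5 was at 6.60, 6.02 and 5.34 CPM with shTHBD, against 45.4, 48.0 and 47.6 CPM in the control, and fell 8.0-fold (−3.00 ± 0.108, adjusted p = 2.6e-21). No library of either group overlapped the other for these genes. Sprouty-4 (SPRY4) and DUSP6, named after their values were seen, fell by 2.52 and 2.18 on the log2 scale. Only EGR1 (−0.91, adjusted p = 0.051) and PHLDA1 (0.03, adjusted p = 0.7) of the 17 were not called. Other receptors feed the same kinases, and the part of FGFR3 and FGFR4 in these falls was not tested.

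In IMR90, where RAS itself carried the activating change, the same list differed between the sets. In libraries labelled set 1, 10 of 17 were higher and 4 lower than control (median 0.30), beside 27.3% and 26.5% of all genes. In set 2 5 were higher and 11 lower (median −0.47), beside 33.2% and 34.1% of all genes. Set directly against each other, 11 were higher in libraries labelled set 1 and 1 was lower (median difference 0.68, against −0.03 over all genes, of which 33.9% were higher and 35.6% lower). The cyclin D1 gene CCND1 was at 1199, 1184 and 1188 CPM in libraries labelled set 1, 452, 454 and 445 CPM in set 2, and 1971, 2012 and 2003 CPM in the control. It fell in both sets, with log2 fold changes of −0.69 ± 0.0191 in libraries labelled set 1 (adjusted p = 1.3e-43) and −2.23 ± 0.0204 in set 2 (adjusted p = 8.3e-75). The ERK phosphatase gene DUSP4 was 0.33 ± 0.129 in libraries labelled set 1 (adjusted p = 0.025), a call that was lost with DESeq2's test (adjusted p = 0.057), with no filter (0.051), without control replicate 2 (0.077) or 3 (0.23), and without set 1 replicate 1 (0.078). In set 2 it fell 2.75-fold (−1.46 ± 0.156, adjusted p = 3.4e-13).

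**Figure D5:**
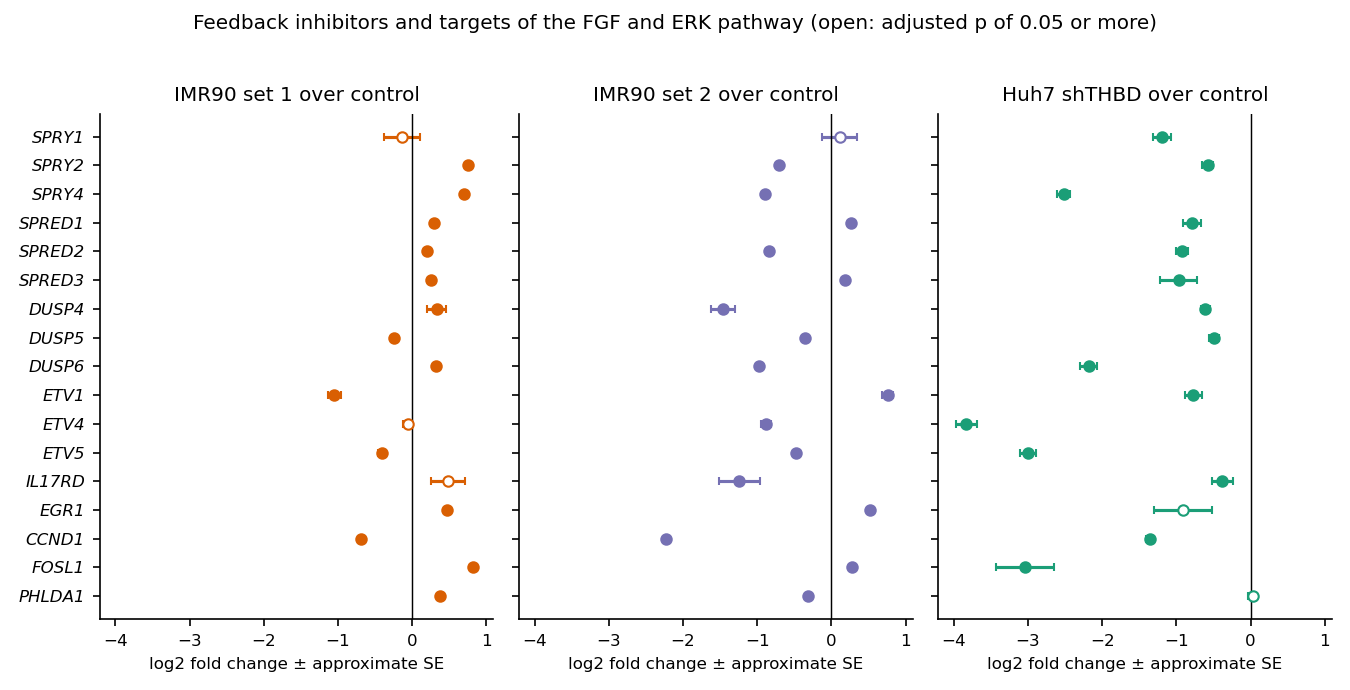
Log2 fold change over control with its approximate SE of 17 feedback inhibitors and targets, in libraries labelled set 1, in set 2 and in Huh7; filled points passed an adjusted p of 0.05. In Huh7 15 of 17 lie below 0 and passed, led by ETV4 at −3.83, whereas 10 of 17 are higher in libraries labelled set 1 and 11 of 17 lower in set 2.

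FGF1 leaves cells in a complex that includes synaptotagmin-1 (SYT1) and S100A13. SYT1 was at 5.48, 4.70 and 5.38 CPM in libraries labelled set 1, 25.7, 28.0 and 25.4 CPM in set 2, and 9.90, 12.2 and 12 CPM in the control. It fell 2.11-fold in libraries labelled set 1 (−1.08 ± 0.118, adjusted p = 1.9e-12) and rose 2.19-fold in set 2 (1.13 ± 0.0937, adjusted p = 1e-17), where FGF1 also rose. In Huh7 it rose 2.58-fold (1.36 ± 0.084, adjusted p = 2.4e-15), where FGF1 had too few counts for the test. S100A13 fell in set 2 (−0.17 ± 0.0508, adjusted p = 0.0028), a call lost with upper-quartile scaling (adjusted p = 0.074). In libraries labelled set 1 it was −0.14 ± 0.051 (adjusted p = 0.02), a call lost with DESeq2's test (adjusted p = 0.053), without control replicate 3 (0.059) and without set 1 replicate 1 (0.11). Of 3 release genes tested, none was higher and 2 were lower in libraries labelled set 1, 1 was higher and 1 lower in set 2, and 1 was higher and none lower in Huh7; over all genes 53.8%, 67.3% and 53.1% were called.

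In the bile acid axis on which FGF19 acts, 1 of 8 genes tested in Huh7 was lower and none higher (median −0.43), beside 27.3% and 25.9% of all genes. NR1H4 (FXR), the bile acid receptor that induces FGF19 in the intestine, was at 15.6, 18 and 19.4 CPM with shTHBD, against 57.8, 63.4 and 60.1 CPM in the control, and fell 3.49-fold (−1.80 ± 0.0935, adjusted p = 3.1e-17). In IMR90, 3 of the 10 were tested. None was called in libraries labelled set 1, beside 53.8% of all genes, and 2 were lower in set 2, beside 34.1% of all genes. CYP7A1, the rate-limiting enzyme of bile acid synthesis that FGF19 represses, had 0 counts in every library and so gave no readout.

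ATF4 and related stress genes, inducers or companions of FGF21, moved in both directions in each line. In Huh7, 6 of 11 were higher and 2 lower with shTHBD (median 0.36), beside 25.9% and 27.3% of all genes. ATF3 was at 46.0, 47.3 and 47.1 CPM with shTHBD, against 16.8, 17.0 and 19.7 CPM in the control (1.36 ± 0.0931, adjusted p = 3.3e-14), and CHAC1, a glutathione-degrading enzyme, rose 1.81-fold (0.86 ± 0.107, adjusted p = 2.9e-08). In IMR90, 3 were higher and 6 lower in libraries labelled set 1 (median −0.31), beside 27.3% and 26.5% of all genes, and 4 higher and 5 lower in set 2 (median −0.22), beside 33.2% and 34.1%. CHAC1 was at 10.6, 13.1 and 12 CPM in libraries labelled set 1, 25.4, 27.7 and 24.0 CPM in set 2, and 55.1, 58.5 and 58.9 CPM in the control, a fall of 4.63-fold in libraries labelled set 1 and of 2.37-fold in set 2. The serine synthesis gene PSAT1 fell 2.83-fold in libraries labelled set 1 and rose 1.26-fold in set 2. In Huh7, ATF4 itself was not called (0.14, adjusted p = 0.053) and TRIB3 fell (−0.61, adjusted p = 1.2e-09). ATF4 fell in libraries labelled set 1 (−0.73) and in set 2 (−0.58). ATF4 and TRIB3 were named after their values were seen. FGF21 had at most 2 counts in any IMR90 library.

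Genes with patterns most like a member's were sought over the libraries of a line, by the root mean square difference of log2(CPM + 0.5) after centring each gene, for members whose highest group mean reached 5 CPM and whose group means differed at least 2-fold, among genes that reached the same level; this is a description. Over the 9 IMR90 libraries and 10772 genes, those nearest to FGF1 were PCDH7 (0.380), RGS4 (0.402) and EGF (0.570). RGS4 averaged 19.2 CPM in libraries labelled set 1, 403 CPM in set 2 and 15.7 CPM in the control. PCDH7 averaged 1.96, 42.3 and 1.70 CPM and EGF 0.204, 18.8 and 0.880 CPM in the same order. Both thus reached 5 CPM only in set 2, and outside it the EGF levels were near the 0.5 added before taking logs. The nearest to FGF2 were MIB1 (0.036), LTBP2 (0.038) and PACSIN2 (0.042), to FGF7 ITGA11 (0.067), ADGRL2 (0.079) and GALNT11 (0.094), and to FGFR1 SDC3 (0.045), CRKL (0.046) and HSPD1 (0.054). SDC3, a syndecan, averaged 192 CPM in libraries labelled set 1, 84.5 CPM in set 2 and 144 CPM in the control. Over the 6 Huh7 libraries and 11918 genes, those nearest to FGFR3 were ACAA1 (0.056), OAF (0.063) and MAFF (0.063), and those nearest to FGFR4 were KIF14 (0.024), HEBP1 (0.056) and SLC48A1 (0.058). With 2 groups in Huh7 many genes share such a step, and 9 or 6 libraries do not tell patterns apart beyond their groups.

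The genes lie on GRCh38, per the submitters' processing notes, at the positions the count tables give. FGF1 spans chr5:142592178-142698070 (minus strand), FGF2 chr4:122826708-122898236 (plus), FGF7 chr15:49423237-49488775 (plus, IMR90 table), FGF19 chr11:69698238-69704022 (minus), FGF21 chr19:48755524-48758333 (plus), FGFR3 chr4:1793293-1808872 (plus) and FGFR4 chr5:177086905-177098144 (plus). FGF5 shares 136 exon bases with CFAP299, which was counted at no more than 1.47 CPM on average in any group, and FGFR1 shares 387 with RP11-350N15.4 in the IMR90 table and 156 with AC087623.1 in the Huh7 table, which were counted at no more than 0.0336 CPM on average in any group. FGFR1 also shares 138 with LETM2, at 5.10 ± 1.5 CPM in libraries labelled set 1, 6.26 ± 0.465 CPM in set 2 and 4.23 ± 0.405 CPM in the control. In Huh7, LETM2 averaged 1.74 CPM with shTHBD and 2.22 CPM in the control, where FGFR1 itself averaged 0.707 and 1.90 CPM. NUDT6, which overlaps FGF2, averaged 2.18 and 2.13 CPM there, against 9.30 and 6.45 CPM for FGF2. The strand option used for Huh7 is not known, and the effect of these overlaps was not tested.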

How the data were processed

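RNA of 9 IMR90 and 6 Huh7 libraries was sequenced as paired reads in bulk. The authors deposited raw gene counts, which were not altered. The submitters' processing notes name fastp, STAR and featureCounts with GRCh38. Per the file headers, the IMR90 table was made with featureCounts 2.0.1 and GENCODE 38, with no strand option; for the Huh7 table, version and annotation were not given in the sources used here. Depth was 18256773 to 21509229 counts per IMR90 library and 19328182 to 25236178 per Huh7 library. The members and gene lists were chosen with earlier results of these data known.

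Samples were grouped by their titles. The 2 lines were fitted apart with edgeR 4.0.16 in R 4.3.3 (filterByExpr with a minimum count of 10, TMM scaling, quasi-likelihood test), with Benjamini-Hochberg adjustment over all genes tested and calls at an adjusted p under 0.05. The effects of IMR90 set 2 and Huh7 were compared by an interaction term in a joint fit of symbols held once in both tables. Standard errors are approximate, from the log2 fold change and its F value. CPM uses the raw library totals, and levels between genes use CPM per kilobase of the exon length in the tables. Intervals on ratios of summed counts are exact and cover counting error only. Genes named from the lists are, for each line, the 2 with the largest change among called genes with at least 5 CPM in a group, unless said otherwise; 1 listed gene is not reported here. The scripts were tested on simulated data. Alternatives were other scalings, no filter, DESeq2 1.42.0, a replicate block, leaving out each library and leaving out a set. Whether replicate numbers pair the samples was checked by the correlation of deviations from the group means; same-numbered pairs gave −0.0259 to 0.0225 in IMR90 and −0.0524 to −0.0158 in Huh7, so the numbers were not used as pairs.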

Additional observations from a re-analysis of the deposited data

Results flagged for a closer look

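Members whose effect differed between the sets in IMR90 stand out, tested as the difference of set 1 from set 2: FGF1 at −5.06, FGF2 at 1.22, FGF5 at −0.86, FGFR1 at 1.30 and FGFR3 at 1.98 on the log2 scale. In each case the libraries labelled set 1 are those in which THBD was above control, and what separates the sets is not given in the labels. Members whose effect differed between the lines, tested as the effect in IMR90 set 2 minus that in Huh7, were FGF2 at −1.84, FGFR1 at 0.64 and FGFR4 at 0.99. The FGFR1 value lost its call under 6 of 17 alternatives and ranged from 0.33 to 1.1 over them. For these members the joint fit gave a smaller SE than the noisier line had alone, so it may understate their error. The causes were not tested.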

How the results depend on the processing

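The number of genes called in each comparison stayed within 1.5 times its value under every alternative run. Leaving out 1 library gave 7633 to 7749 genes in libraries labelled set 1 against control, 9932 to 10028 in set 2 against control, 10346 to 10442 between the sets, 8391 to 9189 in Huh7 and 6803 to 7375 between the lines. Of 181 values of members and THBD under settings that kept all libraries of the groups compared, 177 kept their direction and their side of the threshold, and of 222 with 1 library left out 199 did; the calls lost are given beside each gene. No sign was found that the replicate numbers pair the samples, which a check on 3 libraries per group cannot exclude. With the numbers as a replicate block 8237, 10317, 10675, 8784 and 7132 genes were called, in the same order. Among members only the FGFR1 difference between the lines then lost its call.

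Signs changed only for values that did not pass the test. FGF7 between the sets was 0.01 with no filter and −0.07 to 0.03 with 1 library left out. FGFR3 in libraries labelled set 1 was −0.19 to 0.26 and FGFR3 between the lines −0.66 to 0.26 with 1 library left out, and S100A13 between the sets was −0.07 with upper-quartile scaling. That scaling moved the median over all genes between the sets to −0.130, against −0.030 with TMM, and FGF7 there to −0.12, about the same shift. The causes were not tested. Without set 2 replicate 3, whose description names Huh7, 10028 genes were called in set 2 against control. Depth limits FGF19, FGF21 and FGFR2 in IMR90 and FGF1, FGF5, FGF7, FGF21 and FGFR2 in Huh7, which fell under the filter and were not tested. With no filter none of them was called. FGF19 had 6 counts over the set 2 libraries and 0 over the IMR90 control libraries. The 95% interval of that ratio began at 1.24 and covers counting error only.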
